A study of Mus musculus with 4 samples.

Results

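The clustered histone genes were taken as all array genes whose name starts with Hist1h, Hist2h, Hist3h or Hist4h. They numbered 49 of the 34843 genes on the array and were read by 55 probes. By class they comprised 6 genes for the linker histone H1, 14 for H2A, 12 for H2B, 8 for H3 and 9 for H4. By cluster, 36 belonged to Hist1, 9 to Hist2, 3 to Hist3 and 1 to Hist4. A probe was taken as measured where the scanner marked it well above background, and each gene was read through its brightest such probe. In all, 48 of the 49 genes were measured, each on all 4 arrays. Hist3h2bb-ps was not well above background on any array.

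Histones are the proteins that package DNA. A pair of each of H2A, H2B, H3 and H4 forms the core particle, and H1 binds the DNA between particles. Most of these proteins are made from many near-identical genes in clusters, which are read during S phase, when DNA is copied. Their mRNAs are unusual in that they end in a conserved stem-loop rather than a poly(A) tail. The stem-loop is bound by the protein Slbp, and the transcript is cut a few bases past it. Some clustered genes can also give longer, polyadenylated transcripts that run past the stem-loop, and these are best known from cells that have left the cell cycle or are differentiating.

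The RNA came from LSK cells, the lineage-negative, Sca-1-positive and c-Kit-positive bone marrow fraction that holds blood stem cells and early progenitors. One array was run for each of 4 genotypes of male C57BL/6 mice, and each array held the pooled RNA of 3 animals. The genotypes were WT, Aspp1-/-, p53-/- and Aspp1-/-p53-/-. Aspp1 (gene symbol Ppp1r13b) encodes a p53-binding protein, and p53 is encoded by Trp53. All mice, WT included, received pIpC, an interferon-inducing double-stranded RNA, in 5 intraperitoneal injections on alternate days from 8 weeks of age, and marrow was taken 4 weeks later at 12 weeks of age. The design gives a dose of 400 μg, while the sample labels give 400, 401, 402 and 403 μg from WT to Aspp1-/-p53-/-. In the p53-/- and Aspp1-/-p53-/- groups p53 was deleted through floxed alleles and Mx1-Cre, a Cre driven by the interferon-responsive Mx1 promoter, so loss of p53 cannot be told apart from carrying Mx1-Cre. The arrays shared 1 slide, with WT and Aspp1-/- in row 1, in columns 1 and 2. Both p53-deleted genotypes lay in row 2, with p53-/- in column 1 and Aspp1-/-p53-/- in column 4.

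With 1 array per genotype there was no replicate and no test. A difference is given in log2 units of the processed signal after division by the array's 75th percentile, which ranged from 535.2 to 596.9 over the arrays. A level is the log2 of that scaled signal. A gene was called higher or lower where the difference reached 1, which is 2-fold. The scanner's own error model put the technical error of 1 difference at 0.20 for most members and at most at 0.39, and this error covers neither the mice nor the RNA. Ppp1r13b was lower by 2.62 in Aspp1-/- than in WT cells (difference -2.62), and Trp53 differed by -2.18 between p53-/- and WT cells, in the direction of the labels. The summed level of 8 LSK markers lay between 349 and 362 on the 4 arrays. Signal well above background was found for 50.3% to 53.3% of gene probes per array.

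The sequences printed first show the stem-loop where a probe holds it, since most of these mRNAs end just past it. The stem-loop motif, searched on the probe strand as GG, 2 free bases, CTT, 3 free bases, AG, 2 free bases and CC, was found in 6 of the 55 histone probes and in 14 of the 55681 gene probes of the array. The stem-loop is in capitals below, each stretch being part of 1 probe.
Hist1h3a: aaccaaaGGCTCTTTTCAGAGCCaca
Hist1h3g: ctttaaaGGCTCTTCTTAGAGCCaccca
Hist1h3i: aacaaaaGGCTCTTTTCAGAGCCccctc
Hist1h4m: aactaaaGGCCCTTTTCAGGGCCatccaa
Hist2h2bb: cccaaaaGGCTCTTTTCAGAGCCacttta
Hist2h2aa1: taaaaaGGCTCTTTTCAGAGCCacccact
The probes for Hist1h3a, Hist1h3g, Hist1h3i, Hist1h4m and Hist2h2bb end 3 to 6 bases past the stem-loop. The Hist2h2aa1 probe runs on for 38 bases past it.

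In Aspp1-/- cells no histone gene reached 2-fold against WT, beside 0.833% of the 20167 genes well above background on both arrays. The 48 differences ran from -0.33 to 0.50 with a median of -0.03. The widest was that of Hist1h1e, a linker histone gene, whose signal was 10653 in WT and 15805 in Aspp1-/- cells (difference 0.50, technical error 0.20). The median over all genes well above background on both arrays was 0.01.

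In p53-/- cells no histone gene reached 2-fold against WT through its brightest probe either, beside 1.45% of 19551 genes. The differences ran from -0.69 to 0.94 with a median of -0.04, and the median over all genes was 0.02. The upper end was Hist1h2ae, an H2A gene, with levels of -1.13 with WT cells, -0.86 without Aspp1, -0.18 without p53 and -0.44 without either. The lower end was Hist2h3c2-ps, listed as a pseudogene on the array and as the protein-coding H3 gene H3c15 in RefSeq.

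In Aspp1-/-p53-/- cells 5 of the 48 genes reached 2-fold against WT, 1 higher and 4 lower. Beside them, 2.49% of 19289 genes reached 2-fold, 1.03% higher and 1.46% lower. These were Hist1h2ac on the higher side and Hist2h2aa1, Hist1h2bc, Hist2h3c2-ps and Hist1h1c on the lower side. The median over the 48 genes was -0.08, and 31 lay below 0, while all genes had a median of 0.02 and 46.6% of them lay below 0. For 26 of the 48 genes the difference was smaller than its technical error. Against p53-/- cells 1 of 48 genes reached 2-fold, beside 1.66% of 19144 genes, and against Aspp1-/- cells 2 of 48 did, beside 1.75% of 19285 genes. These comparisons and those with WT share arrays. The Aspp1-/-p53-/- and p53-/- genotypes both carry Mx1-Cre, and their arrays lay in the same slide row, in columns 4 and 1. Between them Hist2h2aa1 differed by -1.14, Hist1h2bc by -0.96, Hist1h1c by -0.65, Hist2h3c2-ps by -0.51 and Hist1h2ac by 0.57. The part of slide position was not tested.

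**Figure D1:**
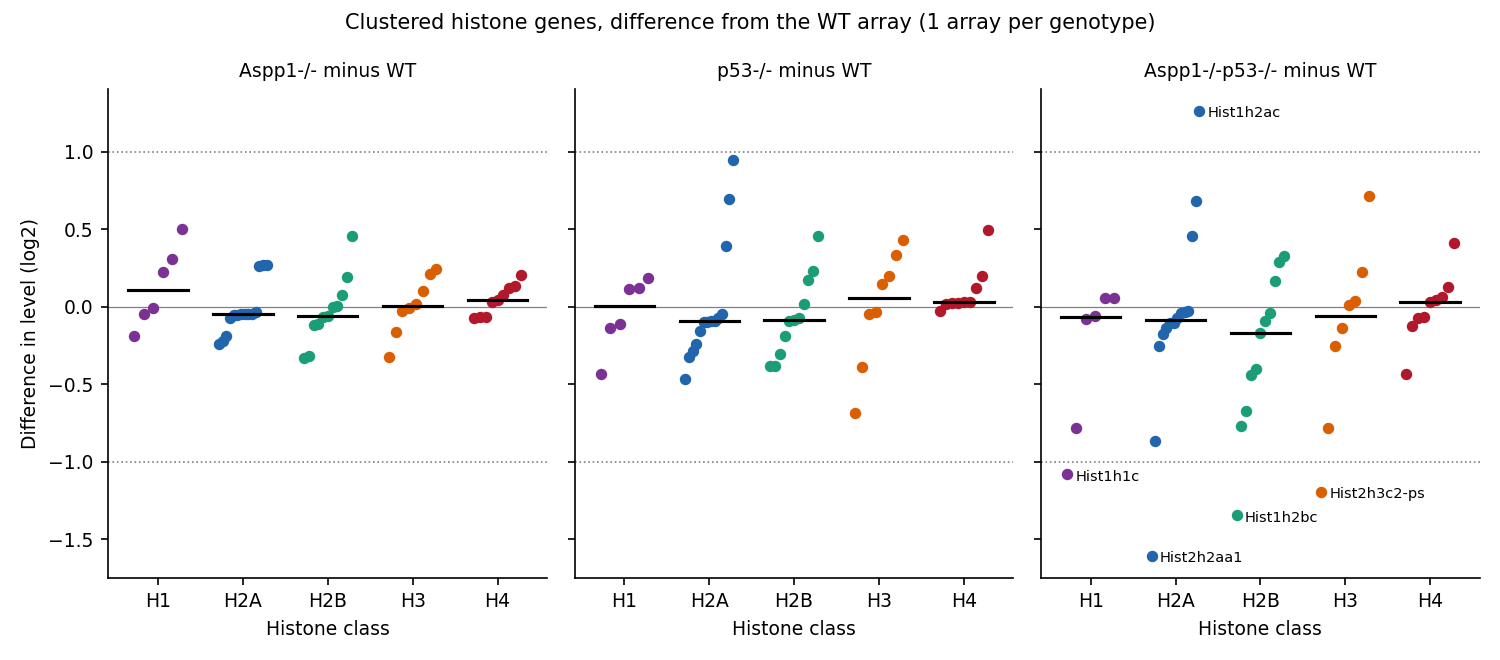
Difference in level (log2) from the WT array for each of the 48 measured genes, by histone class, in Aspp1-/-, p53-/- and Aspp1-/-p53-/- cells; points are genes, black lines class medians and dotted lines 2-fold. No gene passes the dotted lines in the left and middle panels, and the 5 named genes do so in the right panel.

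The linker histone gene Hist1h1c (RefSeq H1f2) read 5.27 with WT cells, 5.09 without Aspp1, 4.84 without p53 and 4.19 without either. The Aspp1-/-p53-/- array was the lowest, 2.12-fold below WT (difference -1.08, technical error 0.20). Its probe lies at chr13:23832018-23832077 of mm9 on the plus strand, at bases 1342 to 1402 of the transcript it was designed on, which is past the end of the 725-base RefSeq gene. Hist1h1d (H1f3), read by another probe past its RefSeq end, stood at -2.26, -2.31, -2.38 and -3.04 in the same order (-0.78 for Aspp1-/-p53-/- against WT, technical error 0.26). Hist1h1b, read inside its gene, had the narrowest range of the class, with levels of 4.09, 4.08, 3.95 and 4.01. The class median for Aspp1-/-p53-/- against WT was -0.07, and 1 of its 6 genes was 2-fold lower.

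Among the H2A genes Hist2h2aa1 (H2ac18) showed the widest range of all 48 genes. WT cells gave a signal of 22959, Aspp1-/- cells 20396, p53-/- cells 16932 and Aspp1-/-p53-/- cells 7082, so the Aspp1-/-p53-/- array was 3.04-fold below WT. The difference was -1.61 against WT, -1.37 against Aspp1-/- and -1.14 against p53-/- cells, each with a technical error of 0.20. Its probe, printed above in part, lies at chr3:96049949-96050008 of mm9. The array's probe for Hist2h2aa2 (H2ac19) lies a short way upstream on the same stretch, at chr3:96049837-96049896, and ends on the stop codon. That probe read 8.91, 8.86, 8.81 and 8.80, a difference of -0.11 between Aspp1-/-p53-/- and WT cells. So these neighbouring probes gave differences further apart than the technical error. The Hist2h2aa2 probe is also among the near-alike H2A probes printed below, and shares runs of 29 bases with those of Hist1h2af, Hist1h2ah and Hist1h2ak. Its signal may come from several H2A genes, so the contrast cannot be read as that of 1 transcript before and across the stem-loop. Since Hist2h2aa1 and Hist2h2aa2 are near-identical copies, which gene each probe reads is uncertain.

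Hist1h2ac (H2ac6) was the histone gene that reached 2-fold on the higher side. Its level was 0.18 in WT and 0.44 in Aspp1-/- cells, then 0.87 in p53-/- cells and 1.44 when both genes were deleted, the last 2.40-fold above WT (difference 1.26, technical error 0.20). Against Aspp1-/- cells its difference was 0.99 and against p53-/- cells 0.57. Its probe at chr13:23773343-23773402 of mm9, on the minus strand, lies at bases 2426 to 2486 of its transcript, well past the 487-base RefSeq gene. Hist3h2a (H2aw), also read past its RefSeq end, differed by -0.87 between Aspp1-/-p53-/- and WT cells.

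For 7 H2A genes the probe covers the last codons and holds the whole stop codon. They are printed to show how close these probes are, with the stop codon in capitals.
Hist1h2af: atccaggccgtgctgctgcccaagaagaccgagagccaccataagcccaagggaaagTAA
Hist1h2ag: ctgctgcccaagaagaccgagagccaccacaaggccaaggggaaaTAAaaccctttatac
Hist1h2ah: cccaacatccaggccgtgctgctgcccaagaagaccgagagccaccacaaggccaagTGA
Hist1h2ak: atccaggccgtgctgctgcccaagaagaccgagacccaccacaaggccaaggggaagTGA
Hist1h2an: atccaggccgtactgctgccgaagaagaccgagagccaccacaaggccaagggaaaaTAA
Hist2h2aa2: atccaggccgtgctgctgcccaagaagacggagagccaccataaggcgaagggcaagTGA
Hist2h2ac: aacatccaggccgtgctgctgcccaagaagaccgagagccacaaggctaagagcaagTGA
Of the 21 pairs among them, 20 shared an unbroken run of at least 20 bases or 80% of their aligned bases, and the longest shared run was 42 bases. Their signals may come from any of several H2A genes, yet each is counted as 1 gene in the counts and medians given here. Hist1h2ag, with the narrowest range of the class, read 8.96, 8.93, 8.91 and 8.92 from WT to Aspp1-/-p53-/-. The widest difference between Aspp1-/-p53-/- and WT among the 7 was that of Hist2h2ac at -0.25, and the other 6 lay between -0.11 and -0.03. The probe for Hist2h2ab covers a like stretch, bases 332 to 392 of its transcript, without the whole stop codon, and differed by 0.46.

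Hist1h2bc (H2bc4) was the widest of the H2B genes. WT cells read 5.64, Aspp1-/- cells 5.53, p53-/- cells 5.25 and Aspp1-/-p53-/- cells 4.29, the last 2.54-fold below WT. The difference was -1.35 against WT, -1.24 against Aspp1-/- and -0.96 against p53-/- cells, with a technical error of 0.20. The RefSeq gene spans 8282 bases, which includes a long transcript, and the probe at chr13:23784254-23784313 of mm9 covers bases 632 to 692 of the transcript it was designed on. Hist3h2ba differed by -0.77 and Hist1h2bp by -0.67 between Aspp1-/-p53-/- and WT cells. Hist1h2bb, read inside its gene, stayed between -1.39 and -1.22. The H2B class had a median of -0.17, with 8 of 11 measured genes below 0.

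Among the H3 genes Hist2h3c2-ps read -0.38 with WT cells, -0.70 without Aspp1, -1.06 without p53 and -1.57 without either. Its last value was 2.29-fold below WT (difference -1.20, technical error 0.21), and its probe ends 368 bases past the 649-base RefSeq gene. The array's annotation gives no mm9 position for it. Hist1h3d (H3c4) was lower without reaching 2-fold, with signals of 95395, 89134, 74274 and 52136 from WT to Aspp1-/-p53-/-, and its probe lies inside the gene. Hist1h3g (H3c8), whose probe ends just past the stem-loop, was higher without reaching 2-fold, at 0.40, 0.64, 0.83 and 1.11. Hist1h3c had the narrowest range, with levels from 2.77 to 2.91. Its probe shares a run of 36 bases with that of Hist1h3f, so its signal may come from more than 1 H3 gene.

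No H4 gene reached 2-fold in any comparison through its brightest probe, and H4 was the class with the smallest spread, from -0.43 to 0.41 for Aspp1-/-p53-/- against WT. Hist1h4d read 6.13, 6.17, 6.15 and 6.16 from WT to Aspp1-/-p53-/-, the narrowest range of all 48 genes. Its probe equals that of Hist1h4j in 38 of 40 aligned bases and that of Hist1h4c in 45 of 52. The signal may therefore come from several H4 genes. Hist1h4m had the widest range of the class, at 0.85, 0.97, 1.34 and 1.26. Hist2h4 and Hist1h4i each have probes that disagree. The brightest Hist2h4 probe differed by -0.08 between Aspp1-/-p53-/- and WT cells, and its dimmer probe, at the start of the transcript, by 1.42. That dimmer probe was also past 2-fold between p53-/- and WT cells, at 1.03. The 3 Hist1h4i probes differed by -0.43, -0.31 and 0.48, the last being the probe inside the gene. These dimmer probes were singled out after their values were seen.

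**Figure D2:**
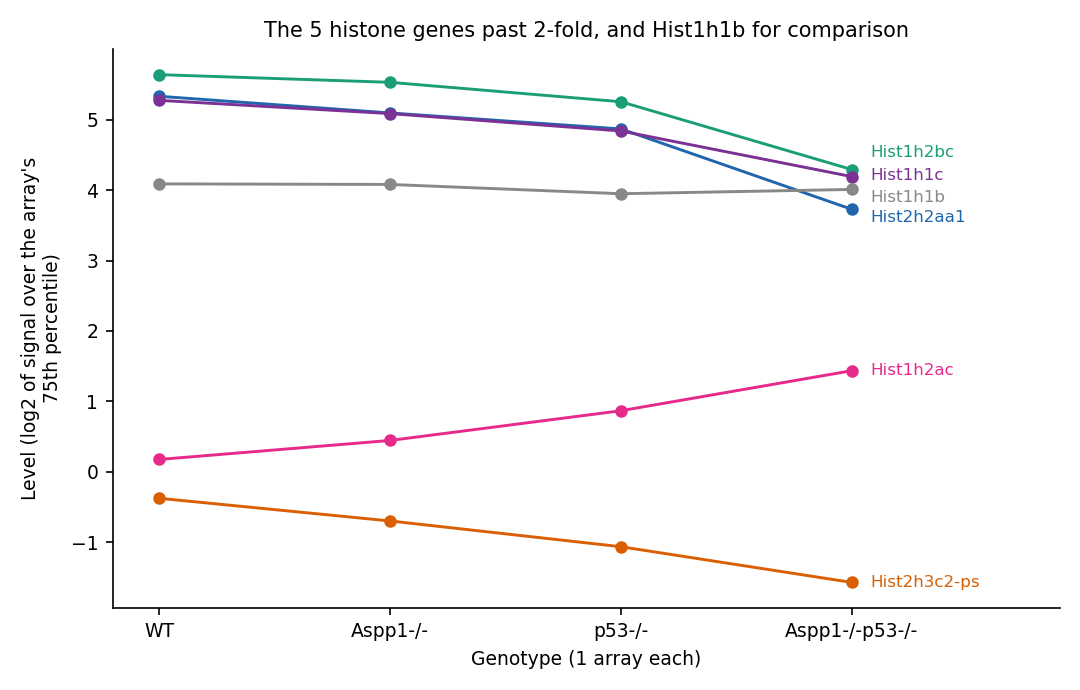
Level (log2 of the signal over the array's 75th percentile) on each of the 4 arrays for the 5 genes past 2-fold and for Hist1h1b; points are single arrays joined by lines. Hist2h2aa1, Hist1h2bc, Hist1h1c and Hist2h3c2-ps are lowest and Hist1h2ac is highest on the Aspp1-/-p53-/- array, while Hist1h1b stays between 3.95 and 4.09.

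The 5 genes past 2-fold kept 1 order of arrays. They were picked by the gap between the WT and Aspp1-/-p53-/- arrays, so the ends of that order follow largely from the choice. For each of the 4 lower genes WT was highest, followed by Aspp1-/-, p53-/- and Aspp1-/-p53-/-, and for Hist1h2ac the order was the reverse. Over all 48 genes, 17 descended in that order and 5 ascended, and these counts include the genes picked by that gap. Of the 19007 genes well above background on all arrays, 9.07% descended and 9.47% ascended. Many of these steps were smaller than the technical error, so the order describes these 4 arrays only. The Aspp1-/-p53-/- array was the lowest for 22 of 48 genes, beside 29.3% of all genes.

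The 2-by-2 design allows the Aspp1 difference in p53-deleted cells to be set against that in cells with p53. For 33 of the 48 genes the difference between Aspp1-/-p53-/- and p53-/- cells was below that between Aspp1-/- and WT cells, with a median gap of -0.13. Over all 19007 genes the median gap was -0.02, with 10288 below 0. The gap was -0.90 for Hist2h2aa1, -0.85 for Hist1h2bc and -0.46 for Hist1h1c. It was widest for Hist1h2bq, an H2B gene, where the first difference was -0.55 and the second 0.45. 1 array per genotype leaves no error with which to test such a gap.

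Probe position was compared over the 48 genes, in groups formed with the values known. A probe counted as past the end where the end of its transcript position exceeded the length of the RefSeq gene. The Hist1h2ae probe, at bases 541 to 601 against a gene of 558 bases, was so counted though it starts inside. Genes with a RefSeq span over 1000 bases were set apart as long models. The labelling kit named in the labels copies RNA from a primer that binds poly(A), as background, and which transcript form gave a probe its signal was not tested. Positions assume that the transcript and the RefSeq gene start at the same base, which need not hold for every gene. The dimmer Hist1h2ak probe, at base 0 of its transcript, begins with ATG, so that transcript holds no bases before the coding part. The split into inside and past the end is therefore approximate. Distances between probes do not test this shared start. For the 5 genes with more than 1 probe the distance between probes was the same in the genome and the transcript for 3 and differed by 3 and 48 bases for the other two. In the 34 genes read inside the gene the median size of the difference between Aspp1-/-p53-/- and WT cells, regardless of sign, was 0.12. Of these, 1 reached 2-fold, Hist2h2aa1. Its probe runs on for 38 bases past the stem-loop, beyond the few bases past it at which these mRNAs are cut. All 6 probes that hold the stem-loop are in this group, and the other 5 differed by 0.22 (Hist1h3a), 0.71 (Hist1h3g), 0.04 (Hist1h3i), 0.41 (Hist1h4m) and -0.17 (Hist2h2bb). In the 9 genes read past the end that median size was 0.78, and 3 reached 2-fold. In the 5 long models it was 0.29, and 1 reached 2-fold. Over all 19289 genes well above background on both arrays 2.49% reached 2-fold. The probe of Hist1h2bq, counted here as a long model, lies on the opposite strand to the promoter of its RefSeq gene. The same holds for the probes of Hist1h2ag and Hist2h2aa2, counted as inside.

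The past-end probes went both ways. Hist1h1c, Hist1h1d, Hist3h2a, Hist3h2ba, Hist2h3c2-ps and Hist1h4i were lower in Aspp1-/-p53-/- than in WT cells, and Hist1h2ac, Hist1h2ae and Hist1h2bg were higher. The groups also differed in brightness, with a median WT level of 4.17 inside the gene and 0.18 past the end. Among genes with a WT level of 2 to 6, the 4 read past the end or in a long model had a median difference of -0.97, and the 12 read inside had -0.11. Genes of all kinds in that range had a median difference of 0.03, and 1.12% of them reached 2-fold. Among genes with a WT level under 2, the median sizes were 0.68 for the 10 past the end or long and 0.17 for the 10 inside. Genes of all kinds in that range had a median size of 0.17, and 3.22% of them reached 2-fold. The histone groups in these ranges hold 4 to 12 genes each. The part of brightness, probe position and transcript form in it was not tested further.

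**Figure D3:**
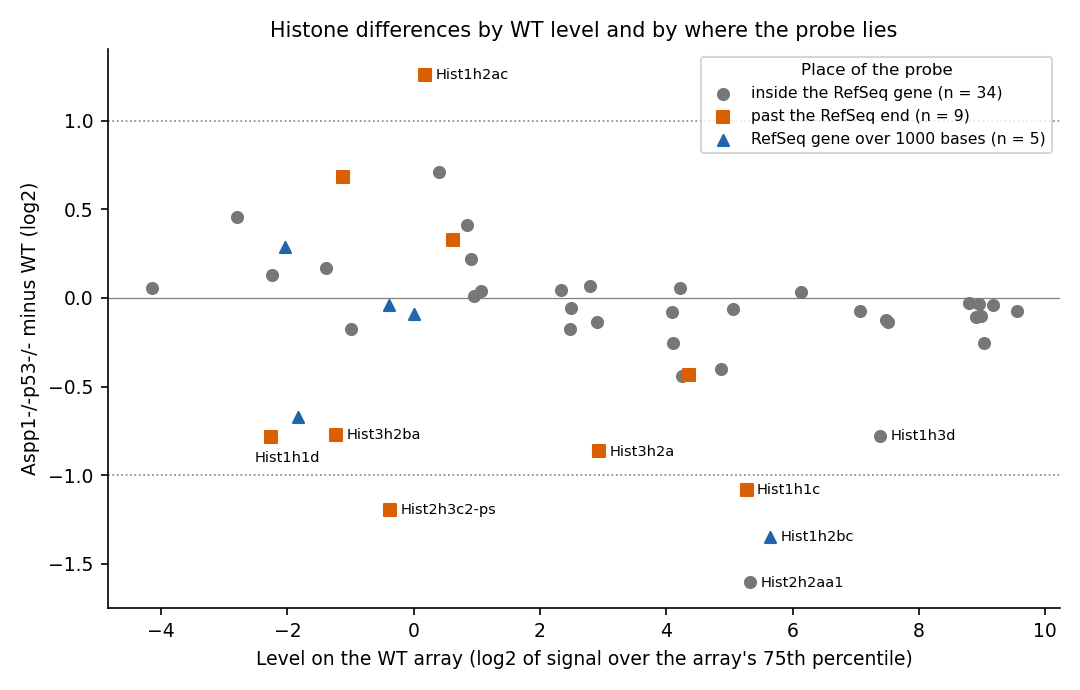
Difference between Aspp1-/-p53-/- and WT cells (log2) against the level on the WT array for the 48 genes; marker and colour give the probe's place and dotted lines mark 2-fold. Of the 34 grey points 1 lies past 2-fold, Hist2h2aa1, and of the 9 orange points 3 do, beside 2.49% of all genes well above background on both arrays. The Hist2h2aa1 probe runs on for 38 bases past the stem-loop.

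By median size the brightest probes moved least. For the 12 genes with a WT level of at least 6, signals on the WT array ran from 39920 to 426328, and no gene reached 2-fold in any comparison, beside at most 0.991% of all genes in that range in any comparison. Their median size of difference between Aspp1-/-p53-/- and WT cells was 0.09, beside 0.08 for the 1009 genes of all kinds in that range. The widest was that of Hist1h3d at -0.78. The 12 include the 7 near-alike H2A probes printed above, so they are not separate readings of 12 genes. None of the histone spots carried the scanner's saturation or outlier mark.

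Clustered H2A and H2B genes often lie head to head and share the DNA between their starts. Among the measured genes 5 such pairs had starts less than 1000 bases apart in RefSeq (GRCm38.p6). Their partners, named H2A first, differed between Aspp1-/-p53-/- and WT cells as follows. Hist1h2an stood at -0.03 and Hist1h2bp at -0.67. Hist1h2ae stood at 0.68 and Hist1h2bg at 0.33. Hist1h2aa stood at -0.18 and Hist1h2ba at -0.44, and both of these are best known from germ cells. Hist2h2ac stood at -0.25 and Hist2h2be at -0.04.

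The remaining pair, Hist1h2ac at 1.26 and Hist1h2bc at -1.35, was the 1 pair of 5 with opposite signs. Hist1h2ac was also higher and Hist1h2bc lower than WT in Aspp1-/- cells (0.27 and -0.11) and in p53-/- cells (0.69 and -0.38). The Hist1h2ac probe ends 1999 bases past its RefSeq end, and Hist1h2bc is read in a long RefSeq model of 8282 bases. Which transcript form gave either signal was not tested, so the opposite signs need not be those of the short mRNAs. The DNA between their starts is printed because both genes are read outward from it. It spans 239 bases at chr13:23683960-23684198 of GRCm38 and is given on the minus strand, so that Hist1h2ac starts at its right end and Hist1h2bc at its left. Capitals mark CCAAT or its reverse ATTGG, the octamer as ATGCAAAT and TATAAA.
Hist1h2bc to Hist1h2ac: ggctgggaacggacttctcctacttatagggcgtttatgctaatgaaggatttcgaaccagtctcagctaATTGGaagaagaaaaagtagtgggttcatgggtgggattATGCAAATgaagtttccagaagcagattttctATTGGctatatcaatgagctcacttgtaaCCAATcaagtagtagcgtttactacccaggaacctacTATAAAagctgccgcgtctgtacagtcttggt
The octamer lies at bases 110 to 117, near the middle, and TATAAA at bases 208 to 213, close to the Hist1h2ac start.

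**Figure D4:**
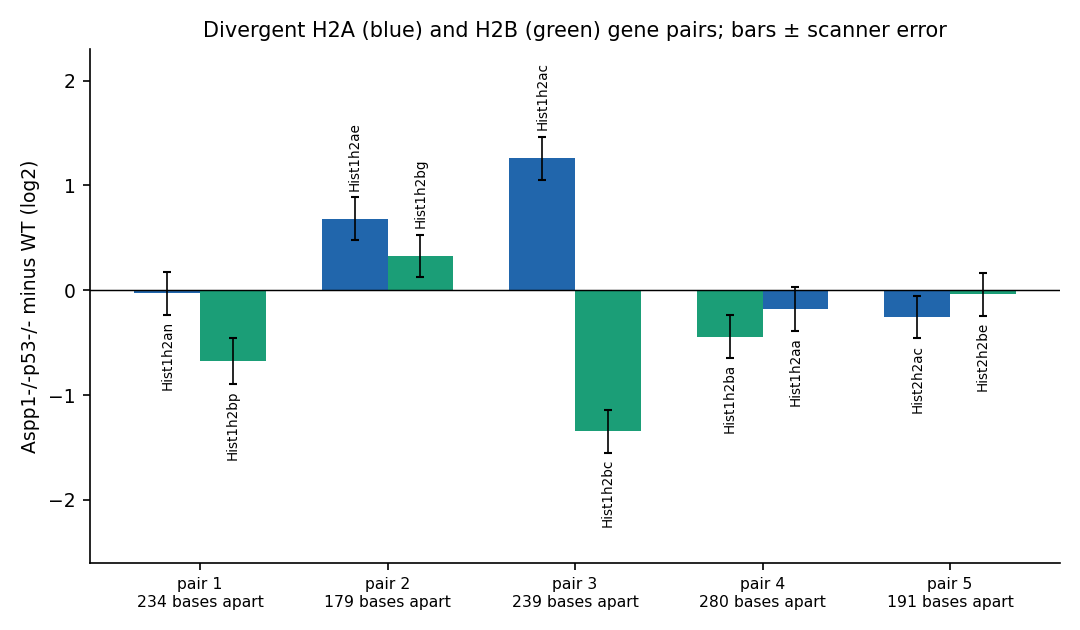
Difference between Aspp1-/-p53-/- and WT cells (log2) for the 5 head-to-head pairs, with the distance between starts in bases; bars are genes on 1 array per genotype and error bars the scanner's technical error. In 4 pairs both bars lie on 1 side of 0, and in the Hist1h2ac and Hist1h2bc pair they lie on opposite sides. The Hist1h2ac probe lies past its RefSeq end, and Hist1h2bc has a long RefSeq model.

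Promoter windows of 300 bases around the start were at hand in RefSeq (GRCm38.p6) for 43 of the 48 genes, as 44 promoters. The octamer ATTTGCAT, searched on both strands, is the site bound by Oct-1 (Pou2f1), a regulator of H2B genes. It was in 29.5% of the histone promoters and in 1.74% of all 32851 promoters. It was in 7 of 14 H2A and 6 of 10 H2B promoters, and in none of the 6 H1, 6 H3 and 8 H4 promoters. Windows of head-to-head pairs overlap, as for Hist1h2aa with Hist1h2ba and Hist1h2ae with Hist1h2bg, so 1 octamer can be counted for both genes. CCAAT was in 86.4% of the histone promoters and 37.4% of all, and TATAAA in 59.1% and 13.6%. The motif GGTCCGC, found in H4 promoters, was in 7 of 8 H4 promoters and in 3.16% of all. A match describes the letters and not a bound factor.

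Factors that read, cut, bind and degrade histone mRNA were followed as a list of 19 genes, of which 18 were measured and Npat was not. None reached 2-fold between Aspp1-/-p53-/- and WT cells, and the median was 0.10 (range -0.18 to 0.22). Over all genes well above background on both arrays the share was 2.49%, so a list of this size could hold none at that share. Pou2f1, which binds the octamer, differed by 0.16. Slbp, which binds the stem-loop, read 1.52 in WT and 1.63 in Aspp1-/-p53-/- cells. Lsm10, a subunit of the U7 particle that guides the cut, differed by 0.20, and Zfp473, a zinc-finger protein of the same complex, by 0.17. Ncbp1 and Ncbp2, the cap-binding proteins, differed by 0.22 and 0.19. Cdk2 and its cyclins Ccne1 and Ccna2, which drive histone transcription in S phase, differed by 0.20, 0.32 and 0.19. The cyclin Ccne2 was well above background on the WT array only and gave no difference here.

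None of the 14 measured histone chaperones reached 2-fold, beside 2.49% of all genes, with a median of 0.11. The widest ranges there were those of Asf1a, which carries H3 and H4 (-0.02), Chaf1b of the CAF-1 complex (0.15), Supt16h of the FACT complex (0.23) and Anp32e, which handles H2A.Z (0.13). None of 18 S-phase genes reached 2-fold, beside the same share of all genes, with a median of 0.09. Those with the widest ranges were Pola1, a DNA polymerase subunit (-0.00), the thymidylate synthase gene Tyms (0.28), the origin-licensing gene Cdc6 (0.25) and the thymidine kinase gene Tk1 (0.12).

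The replacement histones come from genes outside the clusters. Most are made outside S phase too, from mRNAs with poly(A) tails, though H2afx also has a stem-loop form. Of the 12 on the list, 9 lay below 0 in Aspp1-/-p53-/- against WT cells, beside 46.6% of all genes, and 1 reached 2-fold, beside 2.49%. Those of H2afx, H2afz, H2afy, H2afj, H3f3a and Cenpa lay between -0.12 and -0.015, each smaller than its technical error of 0.20. Several on the list are bright, and genes of all kinds with a WT level of at least 6 had a median of -0.06. The gene past 2-fold was H3f3b, which encodes H3.3, with levels of 7.84 with WT cells, 7.63 without Aspp1, 7.29 without p53 and 6.84 without either. H3f3a, the other H3.3 gene, differed by -0.12. H1f0, a linker histone of non-dividing cells, differed by -0.46, H1fx by -0.32 and H2afy3 by 0.29. The list median was -0.07.

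Hist1h1c, Hist1h2bc and Hist2h2be are the clustered genes listed as having known polyadenylated transcripts. The first and second were among the 5 past 2-fold, and Hist2h2be differed by -0.04, with levels of -0.39, -0.71, -0.58 and -0.43. The list was chosen with earlier results of these data known, so its overlap with the 5 genes is description only. Hist1h2be, Hist1h2bp and Hist1h2bq, also counted as long RefSeq models, differed by 0.29, -0.67 and -0.09.

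**Figure D5:**
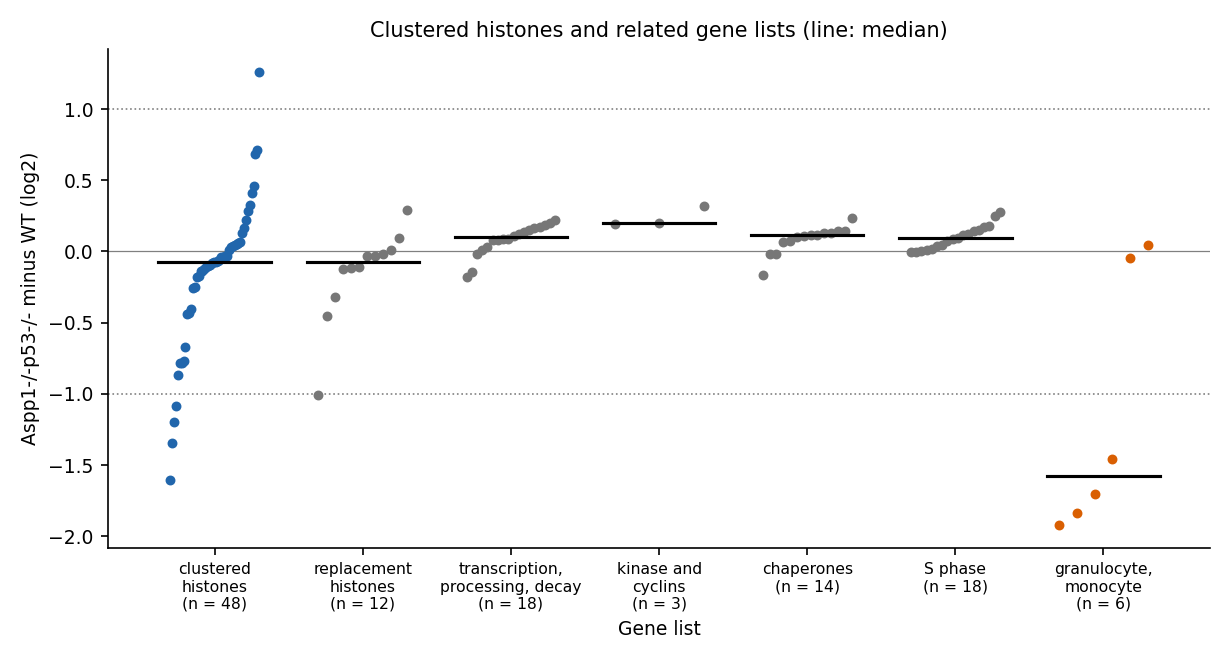
Difference between Aspp1-/-p53-/- and WT cells (log2) for the 48 clustered histone genes and for 6 related lists; points are genes, black lines list medians and dotted lines 2-fold. The lists for transcription and processing, cyclins, chaperones and S phase stay within 0.32 of 0, and 4 of 6 granulocyte and monocyte markers lie past 2-fold.

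Markers of other cells moved on the same array. Of 6 granulocyte and monocyte markers, 4 were 2-fold lower in Aspp1-/-p53-/- than in WT cells, S100a8, S100a9, Ltf and Ngp (-1.70, -1.46, -1.92 and -1.84). The list's summed level was 159 with WT cells, 139 without Aspp1, 143 without p53 and 70.9 without either. Ly6g and Itgam, also on that list, differed by -0.05 and 0.04. Of 3 measured plasma and stromal markers, Cxcl12 was 2-fold lower (-2.20), and the summed level was 6.12, 7.64, 4.67 and 3.50. The summed levels of 2 T-cell markers lay between 3.29 and 4.24 and of 4 erythroid markers at most at 11.6. Of the B-cell markers Ms4a1 was not well above background on the WT array, and the list sum lay between 0.74 and 1.08. The part of these cells in the histone differences was not tested. In RNA from a cell fraction, fewer cells of a type and less RNA per cell cannot be told apart.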

How the data were processed

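LSK RNA (3 mice pooled per genotype) was labelled with Cy3 and hybridised to 4 single-colour Agilent arrays, 1 per genotype. Per the file headers, the deposited intensity is the processed signal of Feature Extraction 10.7.3.1, background-subtracted by the scanner software, with background and outlier marks as other deposited values; probe positions are on mm9. The deposited value table of the authors holds log2 values, whose centring is not stated; its column medians lay between -0.066 and 0.048, and its differences correlated with those used here at r = 1.00 over 26465 probes, so scale and direction match. Steps before the scan follow the labels' protocols.

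Signals were divided by each array's 75th percentile over all gene spots and taken to log2. Spots of a probe were averaged, the brightest probe well above background stood for a gene, and differences were read with a 2-fold rule, without a test, since 1 array per genotype leaves no replicates. The number of arrays limits the precision. The calculation was tested on simulated data. Named genes were those past the rule, the widest and narrowest of each class, and up to 4 per list; others were singled out after their values were seen. The members and lists were chosen with earlier results of these data known. Of the 55 probes, 55 matched a RefSeq gene, 3 of them by symbol. Normexp, array median and quantile scaling, filters, probe means, gene identity, the value table and a 1.5-fold rule were the 9 alternatives. Python 3.11.15, R 4.3.3 and limma 3.58.1 were used.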

Additional observations from a re-analysis of the deposited data

Results flagged for a closer look

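Hist1h2bq, named as an H2B gene on the array, was singled out because its differences went opposite ways by background genotype. Its probe lies on the plus strand of mm9, while the promoter of the RefSeq gene matched to it (H2bc23) lies on the minus strand. Which gene this probe reads is therefore uncertain. Aspp1-/- cells differed from WT by 0.45 and Aspp1-/-p53-/- cells from p53-/- cells by -0.55. In the same way p53-/- cells differed from WT by 0.46 and Aspp1-/-p53-/- cells from Aspp1-/- cells by -0.54. It read 0.01 with WT cells, 0.46 without Aspp1, 0.47 without p53 and -0.08 without either, so both single deletions were higher than the other two arrays. Each difference exceeded 2 times its technical error, but with 1 array per genotype the opposite directions were not tested.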

How the results depend on the processing

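No paired analysis was possible because each genotype had 1 array. With no filter on dim probes the count past 2-fold against WT became 1 without Aspp1, 1 without p53 and 6 without either, through Hist3h2bb-ps, which is not well above background, beside 6.44%, 8.69% and 9.48% of all genes. A 1.5-fold rule against WT gave 3 of 48 genes for p53-/- and 12 of 48 for Aspp1-/-p53-/- cells, beside 9.03% and 12.1% of all genes. It gave 4 of 48 for Aspp1-/-p53-/- against p53-/- cells and 8 of 48 against Aspp1-/- cells, beside 9.93% and 10.4%. Normexp background correction took Hist2h3c2-ps below 2-fold (-0.93), and quantile normalisation took Hist1h2ac to 1.002 in Aspp1-/-p53-/- against Aspp1-/- cells. No direction turned among the 5 genes past 2-fold or the set medians under the 9 alternatives. The set median for Aspp1-/-p53-/- against WT lay between -0.13 and -0.03. Array median scaling shifted the median of all genes by -0.13 in p53-/- against WT. The cause of these changes was not tested, beyond the looser rule and the dropped filter themselves. Leaving out an array was not possible with 1 per genotype, and the 2-by-2 gaps, order of arrays and probe positions were not recomputed.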
